A study of Homo sapiens with 6 samples.

Results

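The unfolded protein response (UPR) and ATF4 target genes analysed here are 33 human genes, taken by symbol from the gene table of the series, and each of the 33 symbols was found in 1 entry of the 24000 listed. RNA was sequenced from PC-3 tumors, a human prostate cancer cell line without androgen dependence, carried as xenografts in nude mice for a labeled treatment of 10 weeks. The 3 vehicle-treated tumors (vehicle replicates 1 to 3) and the 3 tumors of mice given WCE (WCE replicates 1 to 3), a standardized extract of the plant Wedelia chinensis, share the cell line and the host strain. By the methods of the study, the hosts were male athymic mice obtained at 6 weeks of age, the cells carried a luciferase transgene and were injected into the anterior prostate, and WCE was given daily by gavage. The labels give no dose, and the text of the study gives differing daily doses for its orthotopic tumors. It also names a treatment shorter than the labeled 10 weeks, and which schedule applies to the sequenced tumors is not stated. A tumor of a single cell line in a host without T cells limits the model to that line and host. Levels are FPKM, fragments mapped to a transcript scaled to its length and to all mapped fragments of the library. This scaling adjusts for length and depth but not for differences in what the libraries hold, which can shift values between tumors. Loci are those of the table, counted from 1, and hg19 is the human build named in the submitters' processing notes.

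Proteins of the secretory pathway fold in the endoplasmic reticulum (ER). When unfolded proteins gather there, the sensors IRE1 (encoded by ERN1), ATF6 and PERK (encoded by EIF2AK3) activate XBP1, ATF6 and ATF4, which raise the transcription of chaperones, of the machinery that exports misfolded proteins for degradation, and of genes for amino acid supply. ATF4 is also reached by other kinases that phosphorylate the translation factor eIF2α, for example when amino acids run short, and this wider route is called the integrated stress response (ISR). XBP1 is controlled largely by splicing, ATF6 by cleavage and ATF4 by translation, so the level of their messenger RNA is only part of their activity.

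The promoters of several members carry the sequence elements through which these factors are known to act, and they are shown as a description made without any use of expression. Most members held none of these elements in the bases searched, so the elements do not sort the members by branch of the response. RefSeq promoters (build GRCh38.p14) were matched by symbol for 31 of the 33 members, with 47 start sites in all, and PSPH and SHMT2 were not matched. The 250 bases before each start site were searched on both strands for the ER stress element (ERSE, the letters CCAAT, then any 9 bases, then CCACG), ERSE-II (ATTGG, then any 1 base, then CCACG), the UPR element (UPRE, TGACGTGG) and the core of the C/EBP-ATF response element bound by ATF4 (CARE, TGATGNAA). ERSE, ERSE-II and UPRE share the letters CCACG or their reverse complement and could match at the same bases, whereas CARE shares none of them. ERSE was found in 0.074% of all 35116 promoters of this length and in 6 members (HSPA5, HSP90B1, CALR, CANX, PDIA6 and XBP1). ERSE-II was found in 0.0513% of all promoters and in the members HERPUD1 and SDF2L1. CARE was found in 3.14% of all promoters and in 5 members (ASNS, ATF3, CEBPG, CHAC1 and HERPUD1), and UPRE in 0.612% of all promoters and in 0 members. In the lines that follow, all read 5′ to 3′ on the strand of the gene, capitals mark the match to ERSE.
HSPA5: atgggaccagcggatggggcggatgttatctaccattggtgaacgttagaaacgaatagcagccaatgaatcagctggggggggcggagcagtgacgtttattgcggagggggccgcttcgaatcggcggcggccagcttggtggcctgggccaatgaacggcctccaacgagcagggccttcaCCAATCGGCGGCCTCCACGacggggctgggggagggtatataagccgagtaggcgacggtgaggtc
HSP90B1: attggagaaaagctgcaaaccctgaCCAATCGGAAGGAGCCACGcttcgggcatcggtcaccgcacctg
CALR: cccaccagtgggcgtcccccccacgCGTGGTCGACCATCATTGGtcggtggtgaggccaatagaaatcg
XBP1: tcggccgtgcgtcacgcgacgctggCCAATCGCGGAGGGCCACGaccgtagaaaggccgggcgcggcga

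The HSPA5 line is the whole 250 bases at chr9:125241344-125241593 (− strand), with ERSE from position −66 to −48 relative to the start site. The others are windows around the match, at chr12:103930191-103930259 (+ strand) for HSP90B1, chr19:12938359-12938427 (+ strand) for CALR and chr22:28800578-28800646 (− strand) for XBP1. HSP90B1 held a second ERSE on the opposite strand at −89 to −71, and the CALR match was also on the opposite strand. The next lines show ERSE-II in capitals for a degradation gene and a chaperone gene.
HERPUD1: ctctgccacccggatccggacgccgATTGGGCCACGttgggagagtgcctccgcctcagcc
SDF2L1: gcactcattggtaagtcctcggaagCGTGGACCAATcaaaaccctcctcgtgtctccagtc

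These windows lie at chr16:56932000-56932060 (+ strand) for HERPUD1 and chr22:21642089-21642149 (+ strand) for SDF2L1. HERPUD1 also held CARE, at −176 to −169, which did not overlap its ERSE-II at −117 to −107. For the ATF4 targets, capitals mark CARE.
ASNS: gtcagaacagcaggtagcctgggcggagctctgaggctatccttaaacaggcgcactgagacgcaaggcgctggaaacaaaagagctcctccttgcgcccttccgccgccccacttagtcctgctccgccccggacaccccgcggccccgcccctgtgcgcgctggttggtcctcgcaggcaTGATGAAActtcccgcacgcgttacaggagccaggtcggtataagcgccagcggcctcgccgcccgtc
CHAC1: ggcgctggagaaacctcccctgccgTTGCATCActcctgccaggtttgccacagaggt
ATF3: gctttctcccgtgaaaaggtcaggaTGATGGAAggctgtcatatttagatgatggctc

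The ASNS line is the 250 bases at chr7:97872409-97872658 (− strand), with CARE at −68 to −61, and the windows lie at chr15:40953237-40953294 (+ strand) for CHAC1 and chr1:212565191-212565248 (+ strand) for ATF3. A match is a description of these letters and was not tested as a binding site.

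In all tumors the epithelial keratins KRT8 (192 to 253 FPKM) and KRT18 (241 to 322 FPKM) were high, which fits the epithelial origin of the line, and KLK3 was listed at 0. Of the markers of other cell types, PTPRC (leukocytes) was at most 0.666 FPKM, PECAM1 and KDR (endothelium) at most 2.95 and 5.12 FPKM, CD68 (myeloid cells) lay between 25.3 and 43.9 FPKM (mean 31.9 with vehicle and 40.7 with WCE), and COL1A1 lay between 10.4 and 45.7 FPKM. The summed level of the 6 fibroblast markers was 42.1 to 56.4 FPKM with vehicle and 12.8 to 55.9 FPKM with WCE. In the same order, that of the 6 endothelial markers was 1.25 to 3.43 and 3.21 to 7.63 FPKM, that of the 6 myeloid markers 25.6 to 41.4 and 40.4 to 44.5 FPKM and that of the 5 plasma and B cell markers 0.592 to 1.09 and 0.702 to 1.43 FPKM (MS4A1 listed at 0 in all tumors). Nearly all of the myeloid sum was CD68, the other myeloid markers each being at most 0.666 FPKM. COL1A1 and COL3A1 made up most of the fibroblast sum, and PECAM1 and KDR most of the endothelial sum. These sums therefore rest on few genes and do not measure the share of a cell type. The entries are human genes, and how mouse host reads were separated is not given. By an unadjusted p under 0.05 in limma, EPCAM, CDH1 and LUM were among the markers lower and KDR higher in WCE-treated tumors, and the part of cell composition in the results that follow was not tested. In bulk tumors, fewer cells of a type and less RNA per cell cannot be told apart. The table gives no read counts. Relative to vehicle replicate 3, set to 100%, depth was estimated from the steps of low values. It came to 25% in WCE replicate 1 and 64.9% to 85.5% in the other 4 tumors. The estimate assumes that the commonest ratio of low values stands for a single fragment in each library. Between 45 and 94 entries held that ratio, depending on the tumor.

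A pair of libraries with different labels stood apart. Over the 33 members, the median absolute log2 difference between vehicle replicate 3 and WCE replicate 1 was 0.029, whereas the remaining 14 pairings gave 0.097 to 0.28. Over the 1915 entries with a mean of at least 50 FPKM it was 0.028 for these libraries and 0.095 to 0.25 for the other pairings. HSPA5 was at 357 FPKM in both, and the largest difference among the 33 members was that of DDIT3, 0.20 on the log2 scale. Over all 13287 entries tested, the absolute log2 difference between these libraries had a median of 0.056 and reached 6.46. Whether both labels stand for 1 library, a label was exchanged or the likeness has another origin cannot be told from the table. Every p-value and interval with 3 tumors a group rests on these libraries being separate tumors with the right labels. Both libraries were kept as labeled, and the results are also given without them, as a comparison of 2 tumors with 2.

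The CALR, HSP90B1, PDIA6 and HSPA5 transcripts were the most abundant of the members, and those of the sensors ERN1 and EIF2AK3 the least. CALR, a calcium-binding chaperone of glycoproteins, had a mean of 1197 FPKM over the 6 tumors, higher than 99.5% of the 13287 entries tested. HSP90B1, the ER form of HSP90, had 896 FPKM, PDIA6, a disulfide isomerase, 397 FPKM and HSPA5, the main ER chaperone of the HSP70 type, 333 FPKM. ATF4 itself was at 265 FPKM, above 97.6% of entries. At the other end, ERN1 was at 2.73 FPKM, EIF2AK3 at 9.02 FPKM and CHAC1, which degrades glutathione, at 9.72 FPKM. The plot of levels shows each gene in every tumor.

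**Figure D1:**
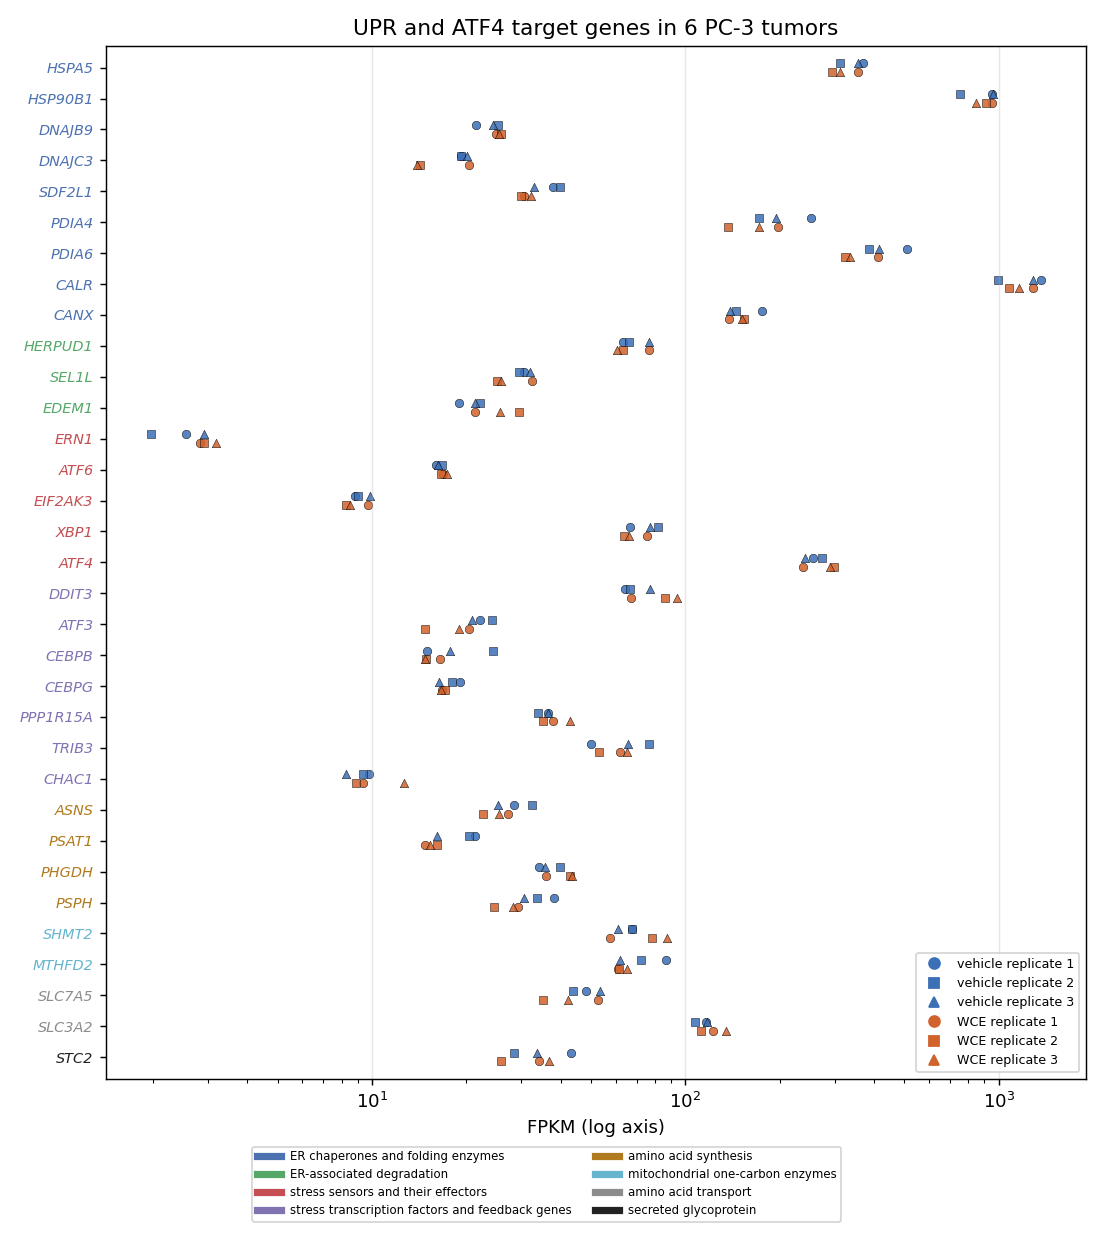
FPKM on a log axis for each of the 33 members (rows, colored by role) in 3 vehicle-treated (blue) and 3 WCE-treated (orange) tumors, with marker shape giving the replicate. CALR is near 1197 and ERN1 near 2.73 FPKM on average, and in 30 of the 33 rows the groups overlap.

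WCE-treated and vehicle-treated tumors were compared to ask whether the extract changed this response in the tumors, using limma on log2(FPKM + 1) across all 13287 entries with a mean of at least 0.5 FPKM. All 33 members passed that filter. With Benjamini-Hochberg adjustment, 0 of the 33 members had an adjusted p under 0.05, beside 0.00753% of all entries. Their lowest adjusted p was 0.623. At a limma p under 0.05 before adjustment, 3 members (9.09%) were called, beside 7.1% of all entries, and all 3 were lower in WCE-treated tumors, a direction that 3.33% of all entries took, with 3.78% called in the other. These were SDF2L1, PSAT1 and PSPH. In 3 members, SDF2L1, PSPH and ATF3, the groups did not overlap, all with the lower levels under WCE, which held for 12.8% of all entries (6.4% lower, 6.37% higher). Leaving out vehicle replicate 2, WCE replicate 2 or WCE replicate 3 lowered the count of 3 to 0 and that of all entries to 2.61%, 1.77% and 1.65%. Without vehicle replicate 1, 1 member was called (CEBPB, which was not among the 3), beside 3.18% of all entries. Without WCE replicate 1, 9 members were called, with PSPH alone of the 3 among them, beside 15.3% of all entries. Without vehicle replicate 3, 4 members were called (the same 3 and MTHFD2), beside 13.3% of all entries. The median log2 fold change was −0.08 over the members and −0.01 over all entries, with 21 members on the lower and 12 on the higher side. The largest values were −0.31 for PSPH and 0.27 for EDEM1.

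With all 6 tumors, the 95% intervals of the log2 fold change, from limma, lay within −1 and 1 for all 33 members and within −0.5 and 0.5 for 19 of them. The lowest lower bound was −0.71, for PDIA4, and the highest upper bound was 0.58, for EDEM1. Without the nearly identical pair, 32 members lay within −1 and 1 and 12 within −0.5 and 0.5, with bounds down to −1.01 for PDIA4 and up to 0.75 for EDEM1. The spread between tumors of a group, as a pooled SD of log2(FPKM + 1), had a median of 0.15 over the members and 0.16 over all entries. It was smallest for ATF6, at 0.029, and largest for STC2, at 0.28. The limma p-values set the difference between groups against the spread between tumors of a group, moderated across entries. They take the libraries as separate tumors.

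**Figure D2:**
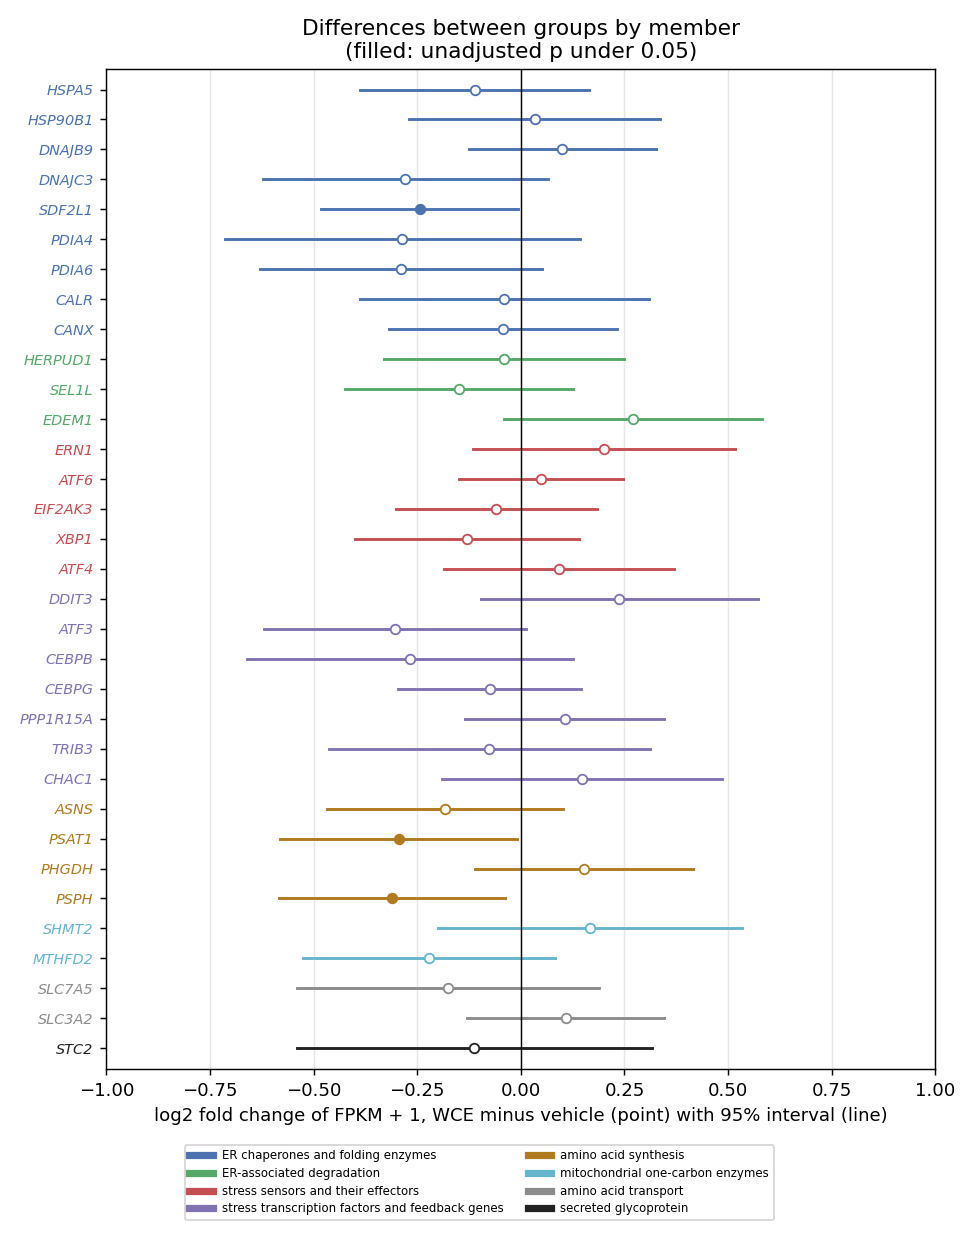
Log2 fold change of FPKM + 1, WCE minus vehicle, for each member (rows, colored by role) with its 95% interval from limma. Filled points (SDF2L1, PSAT1 and PSPH) have an unadjusted p under 0.05, and the intervals of the other 30 members include 0.

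Among the 9 ER chaperones and folding enzymes, 7 had a lower and 2 a higher mean in WCE-treated tumors, with a median log2 fold change of −0.11. SDF2L1, a small ER protein that works with HSP70-type chaperones, is listed on chromosome 22 from 21996542 to 21998588. Its levels were 37.7, 39.9 and 32.9 FPKM in the vehicle-treated and 30.5, 29.9 and 32.1 FPKM in the WCE-treated tumors. The lowest vehicle-treated tumor was thus above the highest WCE-treated tumor by less than 1 FPKM. The log2 fold change of SDF2L1 was −0.24 (SE 0.10, adjusted p = 0.623 in limma, 0.046 unadjusted). Its unadjusted p in limma was 0.0582 without the mean-variance trend and 0.0824 with replicate number as a block. HSPA5, on chromosome 9 from 127997127 to 128003666, was at 368, 312 and 357 FPKM with vehicle and at 357, 293 and 311 FPKM with WCE. The groups overlapped, with a log2 fold change of −0.11 (95% interval −0.39 to 0.17).

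HSP90B1 (log2 fold change 0.03, in an entry that also carries MIR3652), CALR (−0.04) and CANX (−0.04), a membrane-bound relative of CALR, had the smallest differences of the chaperones. PDIA4 (−0.29) and PDIA6 (−0.29), both disulfide isomerases, and DNAJC3 (−0.28), a cochaperone that also binds eIF2α kinases, had larger ones that did not pass the unadjusted threshold. PDIA6 shares its listed locus with ATP6V1C2. PDIA4 had the widest spread within groups of the 9, with 252, 172 and 195 FPKM in vehicle-treated tumors and 198, 136 and 172 FPKM in WCE-treated tumors. DNAJC3 was at 19.3, 19.3 and 20.1 FPKM with vehicle, and at 20.3 FPKM in WCE replicate 1 but 14.3 and 13.9 FPKM in WCE replicates 2 and 3. Its WCE-treated tumors therefore lay on both sides of the vehicle-treated group. DNAJB9, a J-domain protein that represses IRE1, had a log2 fold change of 0.10.

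Of the 3 genes of ER-associated degradation, 0 had a limma p under 0.05 before adjustment. EDEM1, which marks misfolded glycoproteins for removal, was at 19.0, 22.1 and 21.4 FPKM with vehicle and at 21.3, 29.5 and 25.6 FPKM with WCE. WCE replicates 2 and 3 were above every vehicle-treated tumor and WCE replicate 1 was not, and the log2 fold change was 0.27 (SE 0.13, adjusted p = 0.623 in limma, 0.0803 unadjusted). SEL1L (−0.15), the adaptor of the ubiquitin ligase HRD1, and HERPUD1 (−0.04), which organizes the same complex, were on the lower side. HERPUD1 ranged from 60.6 to 76.5 FPKM, with vehicle replicate 3 and WCE replicate 1 highest.

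Of the 5 sensors and their effectors, 3 had a higher and 2 a lower mean in WCE-treated tumors, with a median log2 fold change of 0.05. ATF6 stayed between 16.0 and 17.3 FPKM over the 6 tumors, ERN1 between 1.97 and 3.18 FPKM and EIF2AK3 between 8.28 and 9.87 FPKM, with log2 fold changes of 0.05, 0.20 and −0.06. XBP1 was at 66.5, 82.0 and 77.1 FPKM with vehicle and at 75.5, 63.9 and 66.3 FPKM with WCE, and the gene table does not separate its spliced form. The groups overlapped, at a log2 fold change of −0.13 with a 95% interval from −0.40 to 0.14. ATF4 was at 256, 272 and 242 FPKM with vehicle and at 237, 297 and 289 FPKM with WCE. WCE-treated tumors held both its highest and its lowest level, and its log2 fold change was 0.09 with a 95% interval from −0.19 to 0.37.

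Of the 7 stress transcription factors and feedback genes, the mean with WCE was higher in 3 and lower in 4, and 0 had a limma p under 0.05 before adjustment. DDIT3, which encodes the pro-apoptotic factor CHOP, was at 64.3, 66.6 and 77.2 FPKM with vehicle and at 67.3, 86.2 and 93.9 FPKM with WCE. WCE replicate 1 lay inside the vehicle-treated range, and the log2 fold change was 0.24 (SE 0.14, adjusted p = 0.629 in limma, 0.139 unadjusted). DDIT3 shares its listed locus on chromosome 12, from 57881736 to 57914300, with MARS, a tRNA synthetase gene with a log2 fold change of 0.25, and how the counting divided reads between them is not given in the sources used here. ATF3, a stress-induced repressor, was at 22.1, 24.1 and 20.8 FPKM with vehicle and at 20.4, 14.7 and 19.0 FPKM with WCE. The groups of ATF3 did not overlap, although vehicle replicate 3 and WCE replicate 1 were 0.02 apart on the log2 scale. Its log2 fold change was −0.30 (SE 0.14, adjusted p = 0.623 in limma, 0.058 unadjusted).

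TRIB3, a pseudokinase that restrains ATF4 and CHOP, was at 49.9, 76.8 and 65.6 FPKM with vehicle and at 62.0, 53.1 and 65.1 FPKM with WCE. All WCE-treated values of TRIB3 lay inside the vehicle-treated range. CHAC1 was at 9.76, 9.37 and 8.25 FPKM with vehicle and at 9.37, 8.90 and 12.7 FPKM with WCE, and WCE replicate 3 alone was above the vehicle-treated tumors. PPP1R15A, the phosphatase subunit GADD34 that reverses eIF2α phosphorylation, had a log2 fold change of 0.11. CEBPB (−0.27) and CEBPG (−0.08), which pair with ATF4 on DNA, were on the lower side, with vehicle replicate 2 alone at 24.4 FPKM of CEBPB and the other 5 tumors between 14.8 and 17.7 FPKM.

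**Figure D3:**
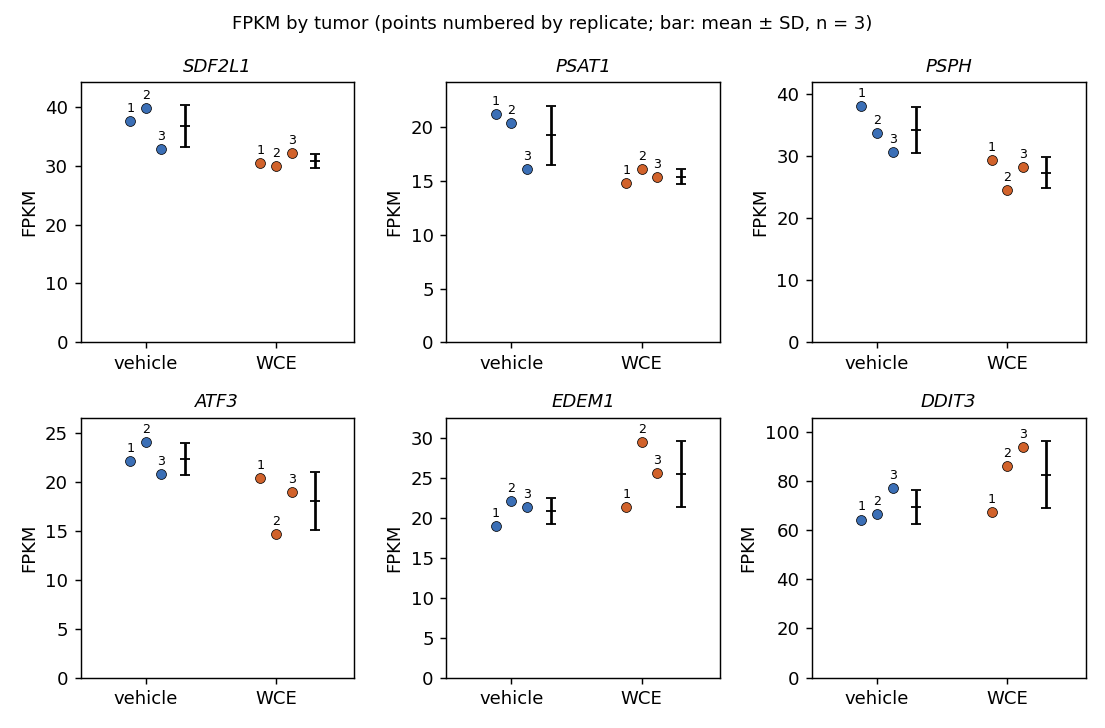
FPKM by tumor, from 0, for the 4 members with an unadjusted p under 0.05 or with groups that do not overlap (SDF2L1, PSAT1, PSPH and ATF3) and the 2 with the highest positive log2 fold change (EDEM1 and DDIT3). Points carry the replicate number, bars give the mean ± SD (n = 3), and vehicle replicate 3 is the lowest vehicle-treated tumor in the first 4 panels.

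Of the serine synthesis enzymes, PHGDH, which catalyzes the first step, had a log2 fold change of 0.15 (95% interval −0.11 to 0.41) with overlapping groups. PSAT1 and PSPH, the enzymes that follow it, had lower means in WCE-treated tumors, and differences between the enzymes were not tested. PSPH, on chromosome 7 from 56078744 to 56119268, was at 38.1, 33.7 and 30.6 FPKM with vehicle and at 29.3, 24.5 and 28.2 FPKM with WCE, with no overlap. Its log2 fold change was −0.31 (SE 0.12, adjusted p = 0.623 in limma, 0.0308 unadjusted), and reads of PSPH can be shared with a pseudogene copy. PSAT1, on chromosome 9 from 80912059 to 80945009, was at 21.3, 20.4 and 16.1 FPKM with vehicle and at 14.8, 16.1 and 15.3 FPKM with WCE. Vehicle replicates 1 and 2 of PSAT1 were above all others, and vehicle replicate 3, at 16.09 FPKM, was just below WCE replicate 2, at 16.12 FPKM. Its log2 fold change was −0.29 (SE 0.12, adjusted p = 0.623 in limma, 0.0444 unadjusted).

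ASNS, which makes asparagine and is a classical target of ATF4, was at 28.4, 32.5 and 25.2 FPKM with vehicle and at 27.2, 22.7 and 25.5 FPKM with WCE. The groups overlapped, at a log2 fold change of −0.18 with a 95% interval from −0.47 to 0.10. Of the mitochondrial folate enzymes, SHMT2 (0.17), which passes a carbon unit from serine and shares its listed locus with NDUFA4L2, and MTHFD2 (−0.22), the next enzyme, did not pass the threshold before adjustment. Nor did the subunits of the leucine transporter, SLC7A5 (−0.18) and its heavy chain SLC3A2 (0.11). STC2, a secreted glycoprotein, was at 43.0, 28.4 and 33.5 FPKM with vehicle and at 34.1, 25.8 and 36.6 FPKM with WCE, all WCE-treated values but 25.8 FPKM lying inside the vehicle-treated range.

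Set by promoter element, the 8 members with ERSE or ERSE-II had log2 fold changes from −0.29 to 0.03 (7 lower, 1 higher, median −0.08), and 1 of them, SDF2L1, had a limma p under 0.05 before adjustment. The 5 members with CARE ranged from −0.30 to 0.15 (4 lower, 1 higher, median −0.08), with 0 under that threshold. Of all entries, 7.1% were under it and 51.4% had a lower mean with WCE. HERPUD1 counts in both sets.

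Across tumors, the ER chaperones were highest in vehicle replicate 1, at a median of 0.16 above the mean of the 6 tumors on the log2 scale, and lowest in WCE replicate 2, at −0.16. Vehicle replicate 2 (−0.05) and WCE replicate 3 (−0.07) were close to each other, as were vehicle replicate 3 (0.08) and WCE replicate 1 (0.09). For the 4 amino acid synthesis genes, vehicle replicates 1 and 2 (both 0.19) stood above vehicle replicate 3 (−0.08) and the WCE-treated tumors (−0.16 to −0.07). Over all members, WCE replicate 2 held the lowest level of 12 genes and vehicle replicate 1 the highest of 10. The heat map shows that no tumor was high or low in all members.

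**Figure D4:**
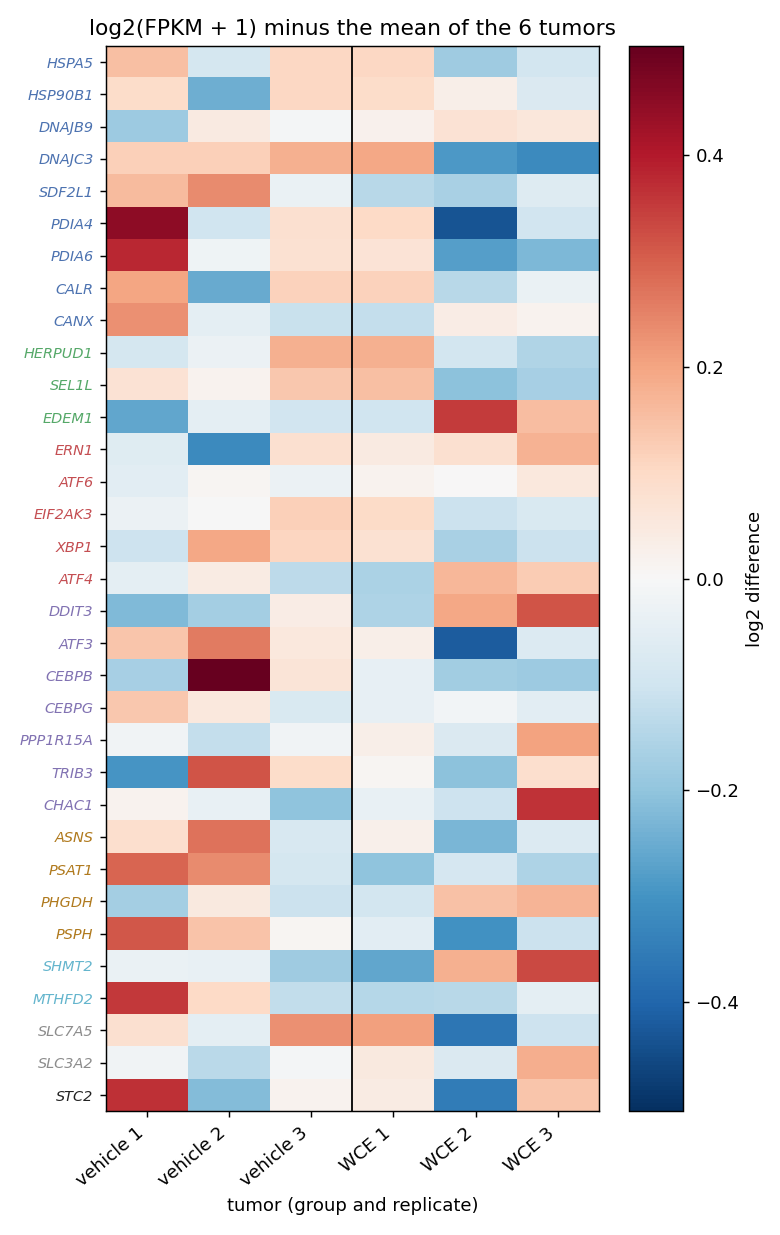
Heat map of log2(FPKM + 1) minus the mean of the 6 tumors for each member (rows, colored by role as in the plot of levels) and tumor (columns, the line separating the groups), red above and blue below that mean. The columns of vehicle replicate 3 and WCE replicate 1 are nearly alike, and PDIA4 and PDIA6 are high in vehicle replicate 1 and low in WCE replicate 2.

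In the comparison that omits vehicle replicate 3 and WCE replicate 1, 10 of the 33 members had a limma p under 0.05 before adjustment. That stands beside 18.4% of all entries (9.59% lower, 8.84% higher), and 7 of the 10 members were lower and 3 higher. None of the 33 had an adjusted p under 0.05 in this comparison of 2 tumors with 2 by limma, against 0.0376% of all entries, and the lowest was 0.18. DNAJC3 (−0.43), SDF2L1 (−0.31), PDIA6 (−0.43), ATF3 (−0.44), ASNS (−0.33), PSAT1 (−0.38) and PSPH (−0.43) were the lower ones on the log2 scale. EDEM1 (0.41), DDIT3 (0.45) and SHMT2 (0.29) were the higher ones. MARS, which shares the locus of DDIT3, was at 0.40. All 33 members kept the sign they had with 6 tumors, and the median over the members was −0.08, against −0.01 over all entries. The 2 comparisons share 4 tumors. The left-out libraries were nearly equal and carried opposite labels, so leaving both out enlarges most differences and mostly keeps their sign by construction. The kept signs and larger values are therefore no separate support.

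**Figure D5:**
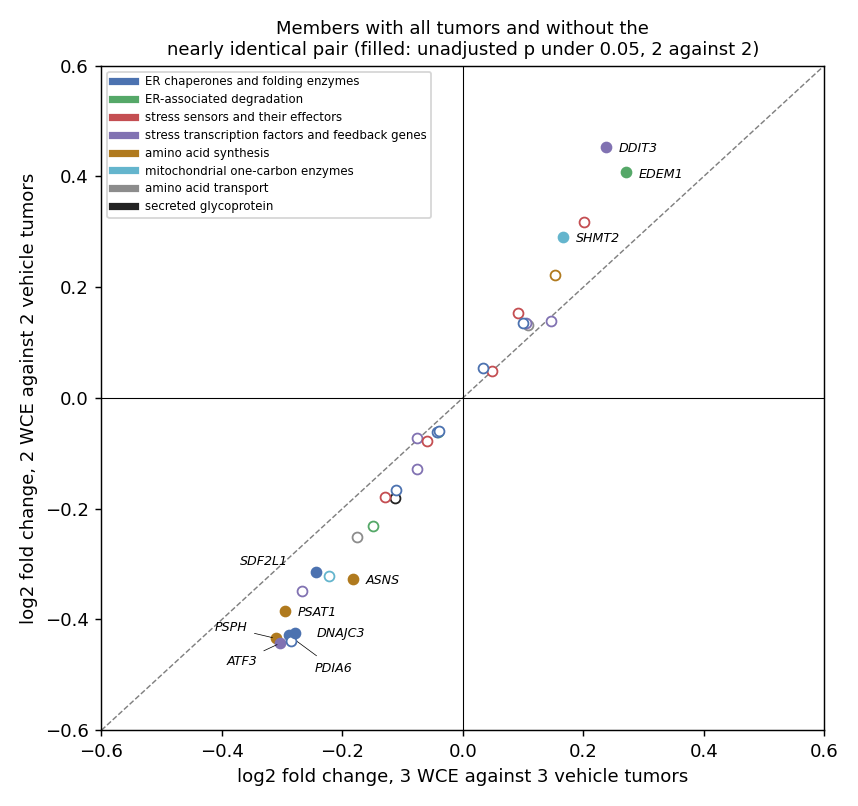
Log2 fold change of each member (colored by role) with all 6 tumors (x axis) and without the nearly identical pair (y axis), the dashed line marking equal values. The 10 filled and named points have a limma p under 0.05 before adjustment in the comparison of 2 tumors with 2, and most points lie farther from 0 on the y axis, DDIT3 moving from 0.24 to 0.45. Leaving out nearly equal libraries of opposite labels enlarges most differences by construction.

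Other genes of the same pathways were taken from 3 lists. Of 30 other UPR genes tested, 2 had a limma p under 0.05 before adjustment, 1 in each direction, beside 7.1% of all entries, with a median log2 fold change of −0.03. In 7 of the 30 (23.3%) the groups did not overlap, 6 of them lower with WCE, beside 12.8% of all entries. MANF, a secreted ER stress protein, was at 318, 277 and 241 FPKM with vehicle and at 234, 211 and 220 FPKM with WCE, a log2 fold change of −0.32 (SE 0.12, adjusted p = 0.623 in limma, 0.0317 unadjusted). OS9, a lectin of ER-associated degradation, was at 107, 104 and 125 FPKM with vehicle and at 126, 143 and 143 FPKM with WCE, a log2 fold change of 0.29 (SE 0.11, adjusted p = 0.623 in limma, 0.0312 unadjusted). In both genes the groups did not overlap, and WCE replicate 1 was the WCE-treated tumor nearest to the vehicle-treated ones.

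Of 28 other ISR and ATF4 target genes tested, 1 (3.57%) had a limma p under 0.05 before adjustment, beside 7.1% of all entries, and the median was −0.02. In 6 of the 28 (21.4%), 4 higher and 2 lower, the groups did not overlap, beside 12.8% of all entries (6.37% higher, 6.4% lower). The gene called was SLC6A9, a glycine transporter, at 3.11, 4.56 and 5.00 FPKM with vehicle and 5.77, 5.62 and 5.48 FPKM with WCE. Its log2 fold change was 0.36 (SE 0.15, adjusted p = 0.623 in limma, 0.0487 unadjusted), and its locus is shared with CCDC24. Of 17 aminoacyl-tRNA synthetases tested, which charge tRNAs and include many ATF4 targets, 0 had a limma p under 0.05 before adjustment. Their median was −0.02, with 8 on the higher and 9 on the lower side. In 0 of the 17 did the groups separate. Without the nearly identical pair, 9 of the 30 other UPR genes had a limma p under 0.05 before adjustment, beside 18.4% of all entries. So did 3 of the 28 other ISR and ATF4 target genes and 5 of the 17 synthetases. The adjusted p was under 0.05 for 0 genes of these lists in either comparison.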

How the data were processed

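RNA of 6 xenograft tumors was sequenced by the study from stranded mRNA libraries. The authors deposited 1 table of FPKM per gene and tumor, and the submitters' processing notes name TopHat2 2.0.13, Cufflinks, hg19 and mm10 without a role for each. How reads of human tumor and mouse host were separated is not given in the sources used here. FPKM carries no read counts, so no counting intervals are given, and relative depth was estimated from the steps of low values.

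FPKM was transformed to log2(FPKM + 1), which understates changes of low genes, entries with a mean under 0.5 FPKM were left out, and 13287 were tested with limma 3.58.1 in R 4.3.3 (moderated test with a mean-variance trend, two-sided, Benjamini-Hochberg adjustment, threshold 0.05). The fit was also run on simulated data drawn independently for each tumor. These held no nearly identical pair, so they cannot show how that pair affects the p-values. Figures and summaries used Python 3.11.15. Groups follow the labels. The members, the other gene lists and the comparison of 2 tumors with 2 were chosen with earlier results of these data known. All members are named. Values in every tumor are given for members with an unadjusted p under 0.05 or groups without overlap and for a set of members fixed by name, and from the other lists for up to 10 genes with an unadjusted p under 0.05. Values by tumor of EDEM1, DNAJC3, PDIA4 and CEBPB, and MARS, were added after they were seen. ATF6B and VARS, each in several entries, were left out, DERL3 fell under the filter, and TXNDC5 was tested in an entry joined with neighboring genes. Pseudocounts, filters, scalings, weights, a replicate block and left-out tumors were tried as alternatives. Some marker genes, and the summed levels of the epithelial and prostate luminal lists, are not reported here.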

Additional observations from a re-analysis of the deposited data

How the results depend on the processing

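In all settings run, 0 members had an adjusted p under 0.05 by limma, and the median log2 fold change of the members was below 0, between −0.12 and −0.02 when single tumors were left out. Their count at an unadjusted p under 0.05 was 1 without the mean-variance trend, 12 with array weights, 10 with both nearly identical libraries left out and 0 to 9 with single tumors left out. The other pathway genes tested were 30 other UPR genes, 28 other ISR and ATF4 target genes and 17 synthetases. Among them the count was 20 with array weights, 5 with the replicate block, 17 with both libraries left out and 0 to 16 with single tumors left out, where their median ran from −0.05 to 0.02. For the marker lists it was 1 with no filter and 1 to 5 with single tumors left out. Over all entries the unadjusted count was 3201 (24.1%) with array weights, 1049 (7.89%) with the replicate block and 894 (6.73%) without the mean-variance trend. It was 2449 (18.4%) with both libraries left out, 219 to 2033 (1.65% to 15.3%) with single tumors left out and 1051 (4.38%) with no filter. The adjusted count was 0 with no filter, 5 with both libraries left out and 1 to 7 with single tumors left out. Why the counts moved was not tested.

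Of 36 named genes, 30 kept their sign in every setting. The sign turned for CALR (0.027), CANX (0.038) and STC2 (0.086) with array weights and for CANX (0.022) and HERPUD1 (0.0049) with quantile normalization. With single tumors left out, the log2 fold change ran from −0.081 to 0.093 for HSP90B1, −0.18 to 0.049 for CALR, −0.11 to 0.061 for CANX, −0.14 to 0.038 for HERPUD1, −0.24 to 0.063 for TRIB3 and −0.25 to 0.044 for STC2.

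Replicate numbers showed no clear pairing of the tumors: deviations from the group means over entries correlated at −0.24, 0.16 and −0.09 for numbers 1, 2 and 3, and not every tumor correlated best with its own number. The highest correlation, 0.36, was that of vehicle replicate 3 with WCE replicate 1, the nearly identical pair. With 3 tumors a group, these correlations cannot decide whether the numbers pair the tumors. With the replicate block, 4 of the 33 members (EDEM1, PDIA4, PDIA6 and PSPH) had an unadjusted p under 0.05 by limma, beside 1049 of all entries (7.89%). Of the 3 called without it, 1 (PSPH) was among them, as without the mean-variance trend, and SDF2L1 and PSAT1 were not. With 3 tumors a group, and a nearly identical pair across groups, small differences cannot be told from the spread between tumors.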
